A study of Mus musculus with 6 samples.

Results

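*Meg3*, *Rian* and *Mirg* are 3 of the 49993 RefSeq genes placed on mm10 and were examined here for AGO2 binding in newborn mouse brain. An AGO2 cluster, a stretch of RNA where reads recovered with AGO2 pile up, was counted for a gene when it overlapped the RefSeq gene body on the same strand. This gave 142 of 359172 clusters in the WT library, 183 of 616014 in the first and 184 of 616005 in the second library of *Mov10* Deletion (replicates 1 and 2 of the labels, named Deletion 1 and Deletion 2 below). Clusters on annotated miRNA hairpins or snoRNA genes were kept apart from the others, because a small RNA that is cut from the transcript is a different molecule from the transcript itself.

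The 3 transcripts lie one after another on the plus strand of chromosome 12 in an imprinted domain. They are long non-coding RNAs that are transcribed from the maternal chromosome and are abundant in brain, whereas the protein-coding genes of the domain, *Dlk1*, *Rtl1* and *Dio3*, are transcribed from the paternal one. *Rian* is known as a host of C/D box snoRNAs, a class of small nucleolar RNAs, and *Mirg* as a host of a large group of neuronal miRNAs. An miRNA is cut out of a hairpin in the transcript, and 1 of its arms is loaded into AGO2, which it guides to other RNAs by base pairing through the seed, nucleotides 2 to 8 of the miRNA.

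The libraries are AGO2 chimeric eCLIP, an assay in which RNA crosslinked to AGO2 is immunoprecipitated (IP) and sequenced beside a size-matched input, and in which a miRNA ligated to its target is read as a chimera. Whole brains came from C57Bl/6J mice at postnatal day 0, with 1 WT brain and 2 *Mov10* Deletion brains. *Mov10* Deletion mice carry a conditional allele with floxed exons 6 and 7 and *Emx1*-Cre together with a heterozygous *Mov10* mutant allele. *Emx1* drives Cre in the excitatory lineage of neocortex and hippocampus, so other cells of the whole brain keep the conditional allele. Since WT is a single library, its values have no replicate and genotypes were not tested against each other, and every difference from WT is given as a description of these libraries.

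Each AGO2 cluster carries 2 deposited values, a log2 ratio of IP to input and a p-value as its −log10. A cluster with both values at 3 or above is called enriched here. By this rule 2.11% of all clusters were enriched in WT, 5.18% in Deletion 1 and 3.10% in Deletion 2. These shares are the background for the counts of enriched clusters that follow. The log2 is scaled in each library, and the values show that equal numbers of IP and input reads were given a ratio of 0.845 in WT, 1.740 in Deletion 1 and 2.386 in Deletion 2. The same reads therefore score 1.04 higher on the log2 scale in Deletion 1 than in WT and 1.498 higher in Deletion 2. The median log2 over all clusters was 0.76, 1.12 and 1.25 in the same order. The coordinates of the 2 *Mov10* Deletion lists were shared for 99.8% of their clusters, so where their clusters lie is not independent, but each library has its own log2 and p. *Mov10* itself held 11, 9 and 9 clusters, of which 1, 0 and 0 were enriched, and since the assay measures AGO2 binding in whole brain this does not check the genotype. Clusters lay on all 5 neuron markers (*Tubb3*, *Map2*, *Snap25*, *Dcx*, *Stmn2*) and all 5 markers of progenitors and glia (*Nes*, *Vim*, *Fabp7*, *Slc1a3*, *Sox2*) in every library. In WT, Deletion 1 and Deletion 2, an enriched cluster lay on 1, 4 and 3 of the neuron markers, which held 273, 433 and 434 clusters. For progenitors and glia the numbers were 0, 4 and 2, among 96, 133 and 133 clusters. Blood markers also held clusters, with an enriched one on 2, 2 and 1 of the 3 markers *Hbb-bs*, *Hba-a1* and *Alas2*, and so did the choroid plexus marker *Ttr*, with an enriched cluster in all 3 libraries. The liver markers *Alb* and *Afp* held 1, 3 and 3 clusters with 0 enriched, and the muscle markers *Acta1* and *Myh3* held 2, 4 and 4, with 1 enriched in Deletion 2 (on *Acta1*). The part of these other cells in the values below was not tested. The share of all genes with an enriched cluster was not computed, so the counts of markers have no background beside them. Reads cannot separate few cells with much of a transcript from many cells with little.

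The clusters that were enriched on hairpins followed the mature miRNA. The stretches below run from the first to the last base of the enriched clusters of all libraries on each arm, with the annotated mature miRNA in capitals (RefSeq, GRCm38.p6, plus strand, 5′ to 3′). They are shown because the cluster ends fall within a few bases of the ends of the mature arm.
miR-370-3p, in *Rian*, chr12:109618302-109618328: aguGCCUGCUGGGGUGGAACCUGGUuu
miR-154-5p, in *Mirg*, chr12:109738435-109738460: agaUAGGUUAUCCGUGUUGCCUUCGc
miR-541-5p, in *Mirg*, chr12:109742420-109742447: agAAGGGAUUCUGAUGUUGGUCACACUc
miR-409-5p, in *Mirg*, chr12:109743168-109743196: agagAGGUUACCCGAGCAACUUUGCAUcu
miR-409-3p, in *Mirg*, chr12:109743202-109743225: acGAAUGUUGCUCGGUGAACCCCU
miR-369-5p, in *Mirg*, chr12:109743427-109743453: agggAGAUCGACCGUGUUAUAUUCGCu
miR-410-3p, in *Mirg*, chr12:109743761-109743785: acgAAUAUAACACAGAUGGCCUGUu

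All 7 stretches hold their mature miRNA whole. They are 24 to 29 nt long, for mature miRNAs of 21 to 25 nt. In single libraries an arm was split into 2 enriched clusters in 10 cases. These neighbours had the same log2 and p in all 3 cases of WT, in 1 of 4 of Deletion 1 and in 1 of 3 of Deletion 2.

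The 3 genes differed in how AGO2 was distributed along them. In *Meg3* (chr12:109540996-109571729, 30734 nt), 0 of 60 clusters were enriched in WT, 0 of 63 in Deletion 1 and 0 of 63 in Deletion 2. The upper limits of the exact Clopper-Pearson 95% intervals of these shares are 5.96%, 5.69% and 5.69%, so the counts of 0 allow shares close to the backgrounds of 2.11%, 5.18% and 3.10%. In *Rian* (chr12:109603945-109661716, 57772 nt), 2 of 53, 2 of 87 and 4 of 87 clusters were enriched. These shares were 3.77% (95% interval 0.460 to 13.0), 2.30% (0.280 to 8.06) and 4.60% (1.27 to 11.4), and each interval includes the background. In *Mirg* (chr12:109734981-109749458, 14478 nt), 6 of 29, 9 of 33 and 7 of 34 clusters were enriched, which is 20.7% (7.99 to 39.7), 27.3% (13.3 to 45.5) and 20.6% (8.70 to 37.9). *Mirg* was the gene of the 3 whose interval lay above the background in all 3 libraries. Of its enriched clusters, 5, 8 and 6 lay on hairpins, whereas the background is over clusters of every kind. The share enriched over all hairpin clusters of the genome was not computed. The intervals treat clusters as independent, which split clusters are not, and cover counting error only.

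**Figure D1:**
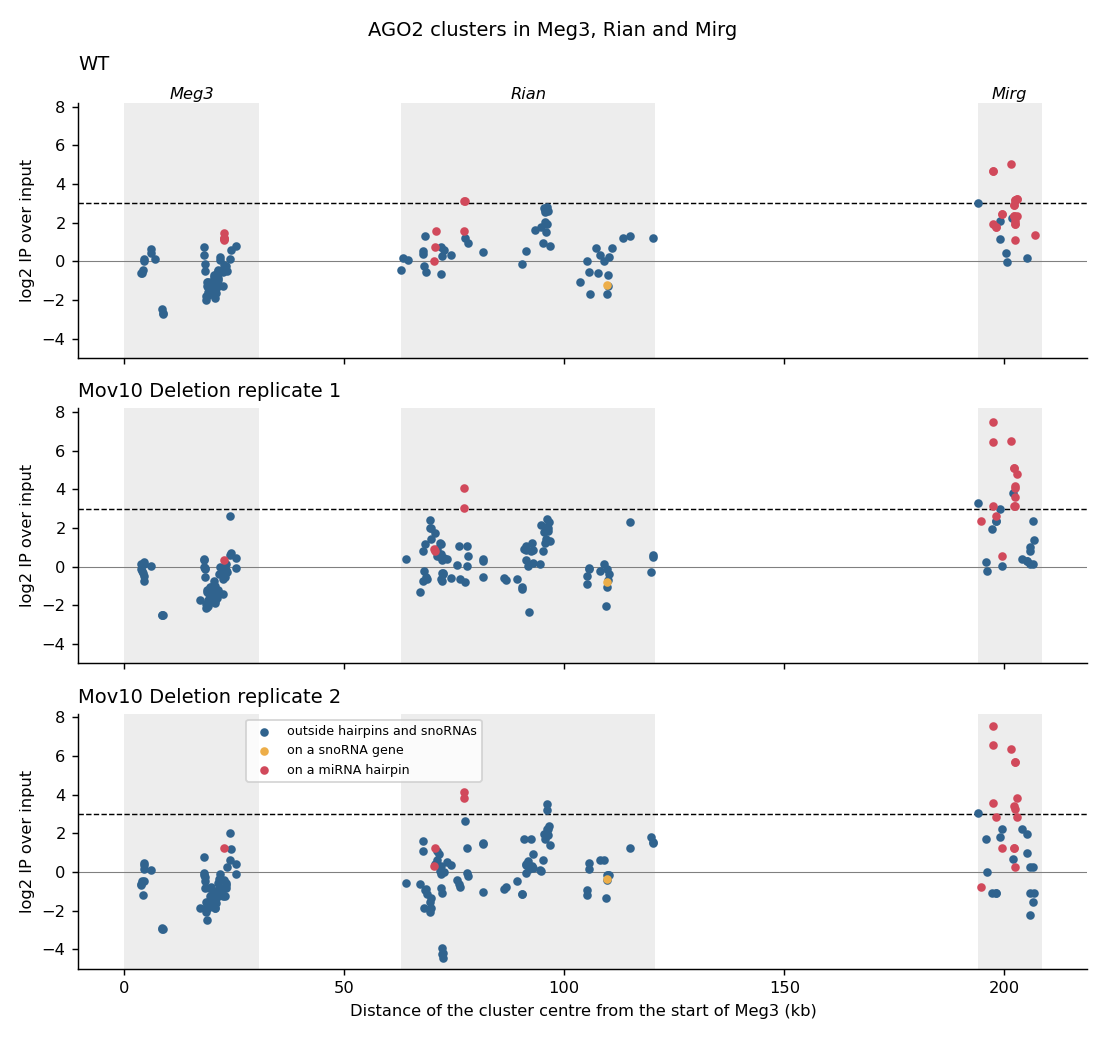
AGO2 clusters in *Meg3*, *Rian* and *Mirg* (grey bands) in the WT library and the 2 *Mov10* Deletion libraries. The horizontal axis is the distance of the cluster centre from the start of *Meg3* in kb, the vertical axis is the log2 ratio of IP over input, colours mark clusters on hairpins, on snoRNA genes and outside both, and the dashed line is the log2 minimum of 3 for an enriched cluster. Most points of *Meg3* lie below 0, and the points above 6 are all on *Mirg* hairpins in the *Mov10* Deletion libraries.

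The log2 values showed the same order of the genes. The median log2 in *Meg3* was -0.73 in WT, -0.77 in Deletion 1 and -0.89 in Deletion 2, below the library medians given above. Clusters with fewer IP than input reads after scaling (log2 below 0) made up 71.7%, 81.0% and 82.5% of the *Meg3* clusters, against 27.6%, 24.0% and 26.0% of all clusters. In *Rian* the median was 0.60, 0.41 and 0.21, with 24.5%, 36.8% and 42.5% of clusters below 0. In *Mirg* it was 2.34, 2.38 and 1.48, with 3.45%, 3.03% and 23.5% below 0. *Meg3* was thus the lowest and *Mirg* the highest of the 3 in each library.

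Other long non-coding RNA genes give a scale for these medians. RefSeq lncRNA genes with a known strand and at least 20 clusters were used, 83 in WT and 142 in each *Mov10* Deletion library. Their gene medians had a median of 0.76, 1.03 and 1.25. A single gene of these had a lower median than *Meg3* in each library. *Rian* stood above 37 of the 83 genes in WT and above 20 and 15 of the 142 in *Mov10* Deletion, and *Mirg* stood above 81, 129 and 132. The absence of an enriched cluster in *Meg3* was not unusual by itself. With *Meg3* counted among them, 63 of the 83 genes in WT and 53 and 77 of the 142 in *Mov10* Deletion had none.

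*Meg3* contains the hairpins Mir1906-1 and Mir770. No cluster lay on Mir1906-1 in any library. The highest cluster on Mir770 (chr12:109563692-109563785) had a log2 of 1.43 in WT, 0.33 in Deletion 1 and 1.25 in Deletion 2. In both *Mov10* Deletion libraries this cluster covered all 22 nt of miR-770-5p. These values were above the *Meg3* medians but under the minimum of 3 in every library.

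Outside its hairpins, the highest value of *Meg3* in WT was 0.80, at chr12:109566335-109566469. In both Deletion libraries the highest values lay in or beside a region of 289 nt, chr12:109565061-109565349, that is described with the chimeric reads below. A cluster in the downstream part of this region had a log2 of 0.58 in WT (−log10 p 10.04), 0.69 in Deletion 1 (15.8) and 1.18 in Deletion 2 (31.0). A 3-nt cluster just upstream, at chr12:109565052-109565054, had the highest log2 of the gene outside hairpins in *Mov10* Deletion, 2.62 and 2.01, and no counterpart in WT. The lowest values lay at chr12:109549654-109549780, with -2.71 and -2.67 in the 2 WT clusters there, -2.51 to -2.47 in Deletion 1 and -2.93 to -2.91 in Deletion 2. The lowest stretch of *Meg3* was therefore the same in all libraries, and the highest was not.

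*Rian* contains 3 hairpins and 11 annotated snoRNA genes. On Mir370 (chr12:109618258-109618336) the highest cluster had a log2 of 3.13 in WT, 4.05 in Deletion 1 and 4.16 in Deletion 2, and it was enriched in all 3. These values rest on 31, 19 and 15 IP reads against 3, 2 and 2 input reads, as inferred from each log2 and p. The enriched clusters covered miR-370-3p, and no cluster of the other arm was enriched. Mir341 had a highest log2 of 0.76, 0.92 and 1.25, and Mir1188 had a cluster in WT alone, with 1.56. Among the hairpins of *Rian*, enrichment was thus found on Mir370.

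The snoRNA genes of *Rian* were almost empty. Of the 11, AF357359 (chr12:109650709-109650738) had an overlapping cluster, and the other 10 had none in any library. Its cluster had a log2 of -1.23 in WT, -0.82 in Deletion 1 and -0.36 in Deletion 2, so IP reads were fewer than input reads in all 3. The cluster was 108 nt long in WT and 168 nt long in both Deletion libraries, well beyond the 30 nt of the annotated snoRNA. The lists hold clusters and not coverage, so snoRNA reads that formed no cluster were not seen.

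Away from hairpins and snoRNAs, *Rian* had 0 of 46 enriched clusters in WT, 0 of 82 in Deletion 1 and 2 of 82 in Deletion 2. The highest clusters gathered in a 1162-nt stretch, chr12:109636338-109637499, which was chosen after its values were seen. There, 8 WT clusters ranged from 1.51 to 2.81, 10 clusters in Deletion 1 from 1.24 to 2.44, and 10 in Deletion 2 from 1.71 to 3.51. The 2 enriched clusters of Deletion 2 lie in it, at chr12:109637097-109637133 with a log2 of 3.202 (27 IP and 7 input reads) and chr12:109637134-109637218 with 3.51 (43 and 9). The latter cluster had 2.08 in Deletion 1, and the WT cluster at chr12:109637115-109637241 had 2.81. Every cluster of the stretch had more IP than input reads in all 3 libraries, and those of WT and Deletion 1 remained under the minimum of 3. The lowest values of *Rian* were found in Deletion 2, where 4 clusters at chr12:109613209-109613393 lay between -4.45 and -3.92.

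*Mirg* contains 10 hairpins, and clusters lay on 9 of them in each library. Enriched clusters were found on 3 hairpins in WT, 5 in Deletion 1 and 4 in Deletion 2. Over all 1072 hairpins of the genome with a known strand, the share with an enriched cluster was 11.3%, 15.3% and 14.4%. Any cluster lay on 311, 295 and 295 of these 1072. Mir154, Mir541 and Mir369 were enriched in all 3 libraries. Mir409 was enriched in both *Mov10* Deletion libraries and Mir410 in Deletion 1. The other 5, Mir453, Mir496a, Mir377, Mir412 and Mir3072, were enriched in none.

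Mir154 (chr12:109738433-109738498) had the highest value of the 3 genes in both *Mov10* Deletion libraries. Its highest cluster had a log2 of 4.68 in WT, 7.47 in Deletion 1 and 7.56 in Deletion 2, from 91, 102 and 79 inferred IP reads against 3, 1 and 1 input reads. The adjoining cluster on the same arm, with 2 input reads in *Mov10* Deletion, had 6.47 and 6.56 there and again 4.68 in WT. A single input read thus moved the value by 1 on the log2 scale.

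Mir541 (chr12:109742409-109742498) had 1 cluster, with the same coordinates in all 3 libraries, and it covered all 25 nt of miR-541-5p. Its log2 was 5.004 in WT, 6.53 in Deletion 1 and 6.38 in Deletion 2, from 38, 53 and 35 IP reads against 1 input read each. Mir369 (chr12:109743418-109743496) had a log2 of 3.15, 4.19 and 5.71 on miR-369-5p, from 21, 21 and 22 IP reads against 2, 2 and 1 input reads. The deposited log2 of both hairpins was thus higher in each *Mov10* Deletion library than in WT, and each value rested on 1 or 2 input reads. The reads themselves did not all follow this order. Mir369 had 21 IP and 2 input reads in both WT and Deletion 1. Mir541 had fewer IP reads in Deletion 2 than in WT against the same single input read. In these 2 comparisons the deposited log2 was higher in *Mov10* Deletion although the ratio of reads was not. A ratio of reads carries no correction for the total reads of the IP and input libraries, so equal reads in 2 libraries need not mean equal binding. Total reads per library are not given, and which of the scales is closer to binding was not tested.

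Mir409 (chr12:109743158-109743236) was enriched on miR-409-5p in Deletion 1 and on miR-409-3p in Deletion 2. On miR-409-5p the log2 was 2.93 in WT, 5.12 in Deletion 1 and 1.25 in Deletion 2, from 9, 20 and 3 IP reads against 1, 1 and 3 input reads. On miR-409-3p it was 2.34, 3.12 and 3.42, from 12, 5 and 9 IP reads against 2, 1 and 2 input reads. The arm that was called thus rests on few reads, and with at least 16 IP reads required, miR-409-3p in Deletion 2 was not called.

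Mir410 (chr12:109743715-109743795) had a highest log2 of 3.22 in WT, 4.80 in Deletion 1 and 3.84 in Deletion 2, on miR-410-3p. It passed the minimum for log2 in all 3 libraries, but with 11 and 6 IP reads its −log10 p was 2.07 in WT and 2.46 in Deletion 2. Mir412 likewise reached 3.12 in Deletion 1 with a −log10 p of 2.91, just under the minimum. With 1 input read, a cluster needed 16 IP reads to be enriched in WT, 9 in Deletion 1 and 8 in Deletion 2, so the same rule asked for more reads in WT.

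**Figure D2:**
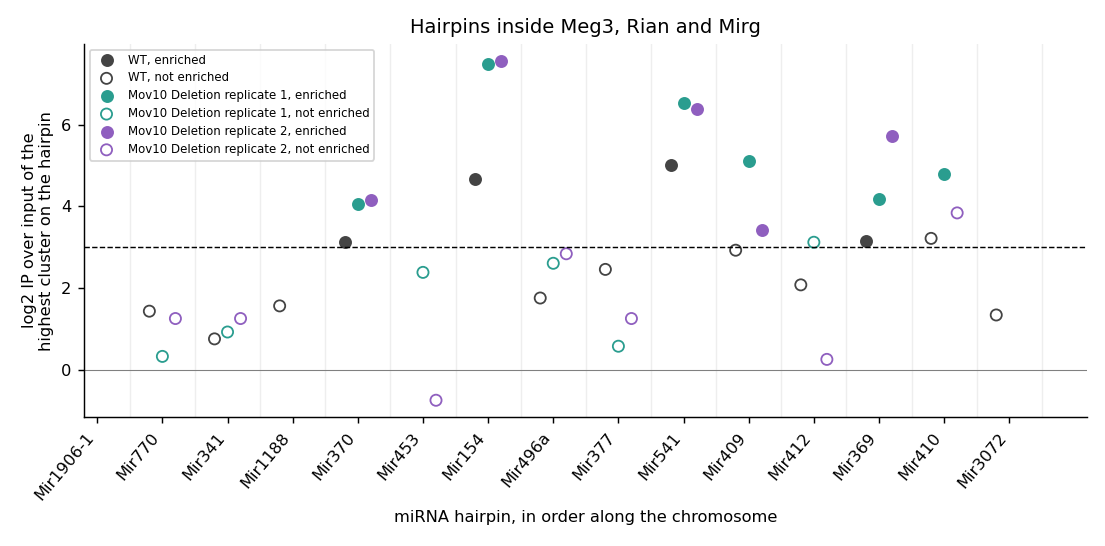
The highest AGO2 cluster on each of the 15 hairpins inside *Meg3*, *Rian* and *Mirg*, in order along the chromosome. The vertical axis is its log2 ratio of IP over input, colours mark the libraries, filled points are enriched and open points are not, the dashed line is the log2 minimum of 3, and a missing point means no cluster. Mir154 and Mir541 reach 7.56 and 6.53 in *Mov10* Deletion, and Mir1906-1 has no point.

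Taken as hairpins rather than clusters, 4 of the 15 hairpins inside the 3 genes were enriched in WT, 6 in Deletion 1 and 5 in Deletion 2. These shares were 26.7% (95% interval 7.79 to 55.1), 40.0% (16.3 to 67.7) and 33.3% (11.8 to 61.6). The 42 hairpins of the domain on the same strand that lie outside the 3 genes were enriched in 16, 23 and 18 cases, or 38.1% (23.6 to 54.4), 54.8% (38.7 to 70.2) and 42.9% (27.7 to 59.0). The intervals of the hairpins inside and outside the 3 genes overlapped in every library. The interval of those inside lay above the genome share of 15.3% in Deletion 1 and included the genome share in WT and Deletion 2. The genome share counts many hairpins without any cluster. A cluster, enriched or not, lay on 13, 12 and 12 of the 15 hairpins inside, and on 311, 295 and 295 of the 1072 of the genome. Of the latter, 121, 164 and 154 were enriched, so among hairpins with a cluster those inside had no higher share.

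*Mirg* had 1 enriched region outside its hairpins, at the very start of the gene. The cluster at chr12:109735030-109735128 in WT began 50 nt into *Mirg* and had a log2 of 3.004, from 38 IP and 4 input reads. In *Mov10* Deletion it lay at chr12:109735033-109735150, with 3.28 in Deletion 1 (28 and 5 reads) and 3.06 in Deletion 2 (14 and 4 reads). All 3 values were close to the minimum of 3. The hairpin Mir485, just upstream of *Mirg*, ends at chr12:109734974, so the cluster does not touch it. The other clusters of *Mirg* outside hairpins numbered 6 in WT and 17 in each *Mov10* Deletion library, and none passed both minimums, although one at chr12:109743007-109743035 reached 3.80 in Deletion 1 from 8 IP reads and 1 input read.

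Counted over the 3 genes, 7 of 33 hairpin clusters were enriched in WT, 10 of 20 in Deletion 1 and 8 of 21 in Deletion 2. The share enriched over all hairpin clusters of the genome was not computed, so these counts have no like background beside them. Outside hairpins and snoRNAs the counts were 1 of 108, 1 of 162 and 3 of 162, or 0.926% (95% interval 0.0234 to 5.05), 0.617% (0.0156 to 3.39) and 1.85% (0.384 to 5.32). The last interval includes its background of 3.10%, as the first includes 2.11%, while that of Deletion 1 lies below its background of 5.18%. Of the 11 enriched clusters in each *Mov10* Deletion library, 8 were the same clusters in both. These 8 lie on Mir370, Mir154, Mir541 and Mir369, and at the start of *Mirg*. How many clusters of the genome were enriched in both libraries was not counted, so this overlap has no background beside it.

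Values were then compared between genotypes over the WT clusters that overlapped a cluster in both *Mov10* Deletion libraries. The difference is the mean log2 of the 2 *Mov10* Deletion libraries minus that of WT. Over 122284 such clusters in the genome its median was -0.11, and its quartiles were -0.77 and 0.58. In *Meg3*, 57 clusters had a median difference of -0.18, and in *Rian*, 39 clusters had -0.14. Both lay near the genome median. In *Mirg*, 23 clusters had a median difference of 1.103, with 17 of the 23 higher than WT in both *Mov10* Deletion libraries and 2 lower in both. Over the genome, 30100 of the 122284 clusters were higher in both and 36498 lower in both. Several WT clusters can overlap the same *Mov10* Deletion cluster, so the 23 *Mirg* clusters met 16 distinct ones.

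Most of the paired *Mirg* clusters lay on hairpins. There, 20 clusters of *Mirg* had a median of 2.46 in WT, 3.83 in Deletion 1 and 3.34 in Deletion 2, and a median difference of 1.103. The 3 clusters outside hairpins had differences of 0.17, 0.33 and 1.23. Hairpin clusters elsewhere also had a higher deposited log2 in *Mov10* Deletion, with a median difference of 0.70 over 73 clusters on the other hairpins of the domain and 0.92 over 526 clusters on all hairpins of the genome. Of the 73, 44 were higher than WT in both *Mov10* Deletion libraries and 9 lower in both. Of the 526, 357 were higher in both and 51 lower in both. The *Mirg* value is therefore not particular to *Mirg*. The 526 clusters had a median log2 of 3.56 in WT, 4.38 in Deletion 1 and 4.42 in Deletion 2, above those of the *Mirg* hairpin clusters. Lower than WT in both *Mov10* Deletion libraries were the 2 WT clusters on Mir377, which had 2.46, where *Mov10* Deletion had 0.58 and 1.25. The cluster on Mir412 had a difference of -0.39, from 2.08 in WT, 3.12 in Deletion 1 and 0.25 in Deletion 2.

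The scaling of the libraries is as large as these differences. At equal reads the mean of the 2 *Mov10* Deletion libraries lies 1.27 above WT on the log2 scale. With the scaling taken off, the values carry no correction for the total reads of a library. The median difference was then -0.17 in *Mirg*, -1.45 in *Meg3* and -1.41 in *Rian*. It was -0.57 on the other hairpins of the domain, -0.35 on all hairpins of the genome and -1.38 over all clusters. The direction in *Mirg* and on hairpins thus depended on the scaling, whereas their place above the median of all clusters did not, since the scaling moves every cluster alike. Hairpin clusters here rested on few input reads, and the part of this in the differences was not tested. Over the paired clusters the median absolute difference between the 2 *Mov10* Deletion libraries was 0.25 in *Meg3*, 0.51 in *Rian* and 0.68 in *Mirg*, and 1.18 over the genome, and WT has no such spread.

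**Figure D3:**
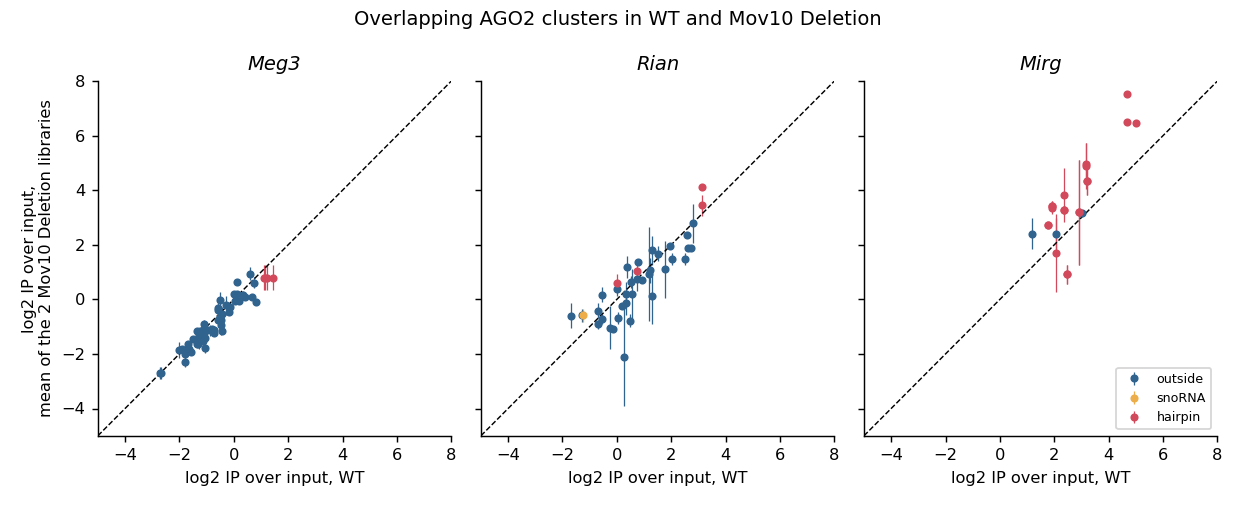
Overlapping AGO2 clusters of WT and *Mov10* Deletion in each gene. The horizontal axis is the deposited log2 ratio of IP over input in WT, the vertical axis is the mean log2 of the 2 *Mov10* Deletion libraries, bars run from one library to the other, and the dashed line marks equal values. On this scale 17 of the 57 *Meg3* clusters and 20 of the 23 *Mirg* clusters lie above the line, against 45.6% of the paired clusters of the genome.

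Chimeric reads show which miRNA sat in AGO2 on a transcript. A target cluster is a region with such reads, deposited with the miRNA and a score that the text of the study does not describe, which was at least 3 in every library. The 3 genes held 22 target clusters in WT, 38 in Deletion 1 and 23 in Deletion 2. These were 0.122% (95% interval 0.0765 to 0.185), 0.140% (0.0991 to 0.192) and 0.186% (0.118 to 0.279) of all target clusters of the libraries, which numbered 18029, 27152 and 12379. The intervals of the 3 libraries overlapped.

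*Meg3* had most of them, with 13, 24 and 16. By this count it ranked 69th of 5018 genes with a target cluster in WT, 64th of 6091 and 27th of 4278 in *Mov10* Deletion, and 2nd, 2nd and 1st among lncRNA genes. *Rian* held 8, 13 and 5 and *Mirg* 1, 1 and 2, where the median gene with any held 2, 2 and 1. Per kb of gene, *Meg3* had 0.423, 0.781 and 0.521 target clusters and *Rian* 0.138, 0.225 and 0.0865. *Meg3* thus combined a low ratio of IP over input with a high count of target clusters. Long and abundant transcripts can hold more target clusters, and neither property was corrected for.

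The miRNAs were 39 in all, of which 7 were found in all 3 libraries, 9 in 2 and 23 in 1. Those in all 3 were miR-124-3p, miR-466i-5p, miR-9-5p, miR-125b-5p, miR-342-3p, let-7b-5p and miR-22-3p. Those in a pair of libraries were let-7c-5p, miR-1298-5p, miR-140-3p, miR-17-5p, miR-181a-5p, miR-181c-5p, miR-376b-3p, miR-466f-3p and miR-668-3p. WT alone gave let-7i-5p, miR-127-5p, miR-129-5p, miR-298-5p and miR-346-5p. Deletion 1 alone gave miR-153-3p, miR-16-5p, miR-18a-5p, miR-204-5p, miR-20a-5p, miR-3099-3p, miR-326-3p, miR-329-3p, miR-345-5p, miR-365-3p and miR-532-3p, and Deletion 2 alone gave let-7d-3p, miR-26a-5p, miR-328-3p, miR-344-3p, miR-369-3p, miR-770-3p and miR-99b-5p. miR-124 and miR-9 are abundant miRNAs of neurons and of the developing brain, and let-7 is a family that accumulates as cells differentiate. The sequences that RefSeq gave for these are shown with the seed in capitals, since the seed is the part that pairs with a target.
miR-9-5p: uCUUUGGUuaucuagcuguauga
miR-125b-5p: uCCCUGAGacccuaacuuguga
miR-342-3p: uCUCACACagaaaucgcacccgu
let-7b-5p: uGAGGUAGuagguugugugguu
miR-22-3p: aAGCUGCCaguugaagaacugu

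No seed is shared among these 5. let-7c-5p (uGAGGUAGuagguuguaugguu), which was found beside let-7b-5p in WT and Deletion 1, has the same seed as let-7b-5p. Outside the seed the 2 sequences also differ little, so reads of the 2 miRNAs differ by few bases.

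Overlapping target clusters were merged across libraries into 47 regions, 24 in *Meg3*, 21 in *Rian* and 2 in *Mirg*. Of these, 8 were found in all 3 libraries, 6 of them in *Meg3*, 1 in *Rian* and 1 in *Mirg*, and each of the 8 had at least 1 miRNA in common to all 3 libraries. Another 8 were found in 2 libraries and 31 in 1. In *Rian* 17 of the 21 regions came from a single library. Target clusters of the 2 *Mov10* Deletion lists can share both ends, as at chr12:109546982-109547110 and chr12:109735029-109735117. Such a pair can carry unlike miRNAs, as at chr12:109562574-109562651 with miR-153-3p and let-7d-3p. Where a region lies is thus not independent between these 2 lists. The share of regions of the genome found in all 3 libraries was not computed. The regions described next are the 8 found in all 3.

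The highest scores of the 3 genes in WT and Deletion 1 belonged to miR-9-5p in *Meg3*, about 6 kb from its start, at chr12:109546982-109547110. WT had 2 adjoining target clusters there with scores of 71.6 and 74.6, Deletion 1 had one with 112.8 and Deletion 2 one with 33.6. The AGO2 clusters beneath them had a highest log2 of 0.65, 0.03 and 0.13. miR-9-5p was the sole miRNA of this region, and its AGO2 clusters had IP over input ratios close to even in *Mov10* Deletion after scaling.

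miR-124-3p was assigned to 3 further *Meg3* regions in all libraries. At chr12:109545430-109545539 its score was 52.9 in WT, 45.7 in Deletion 1 and 36.4 in Deletion 2, where it was the highest score in the 3 genes, and in WT alone miR-9-5p (5.84) and miR-129-5p (3.76) were assigned there too. At chr12:109548511-109548600 the scores were 10.6, 10.8 and 9.92, and at chr12:109567133-109567194 they were 17.8, 12.5 and 8.82. The last of these regions and the one before it had no AGO2 cluster in any library, so the chimeric reads marked places that the AGO2 clusters did not.

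The region with most miRNAs was the 289-nt one at chr12:109565061-109565349, where 9 miRNAs were assigned in WT, 7 in Deletion 1 and 4 in Deletion 2. miR-466i-5p and miR-342-3p were common to the 3 libraries. miR-466i-5p had its highest scores here, 52.9 in WT, 26.2 in Deletion 1 and 23.8 in Deletion 2. The highest score of miR-342-3p was 16.9, 27.5 and 6.08. The RefSeq gene body of *Rtl1* (chr12:109564900-109604418, GRCm38.p6) reaches into this part of *Meg3* from the opposite strand, and it had no AGO2 cluster and no target cluster on its own strand in any library.

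Near the 3′ end of *Meg3*, at chr12:109569154-109569260, let-7b-5p had a highest score of 13.7 in WT, 6.41 in Deletion 1 and 10.8 in Deletion 2. let-7c-5p was assigned there with 15.3 and 7.93 in WT and Deletion 1, and miR-124-3p with 4.98 in Deletion 2. No AGO2 cluster lay in this region. Whether the regions are exonic was not examined, since exon positions on mm10 were not used here.

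**Figure D4:**
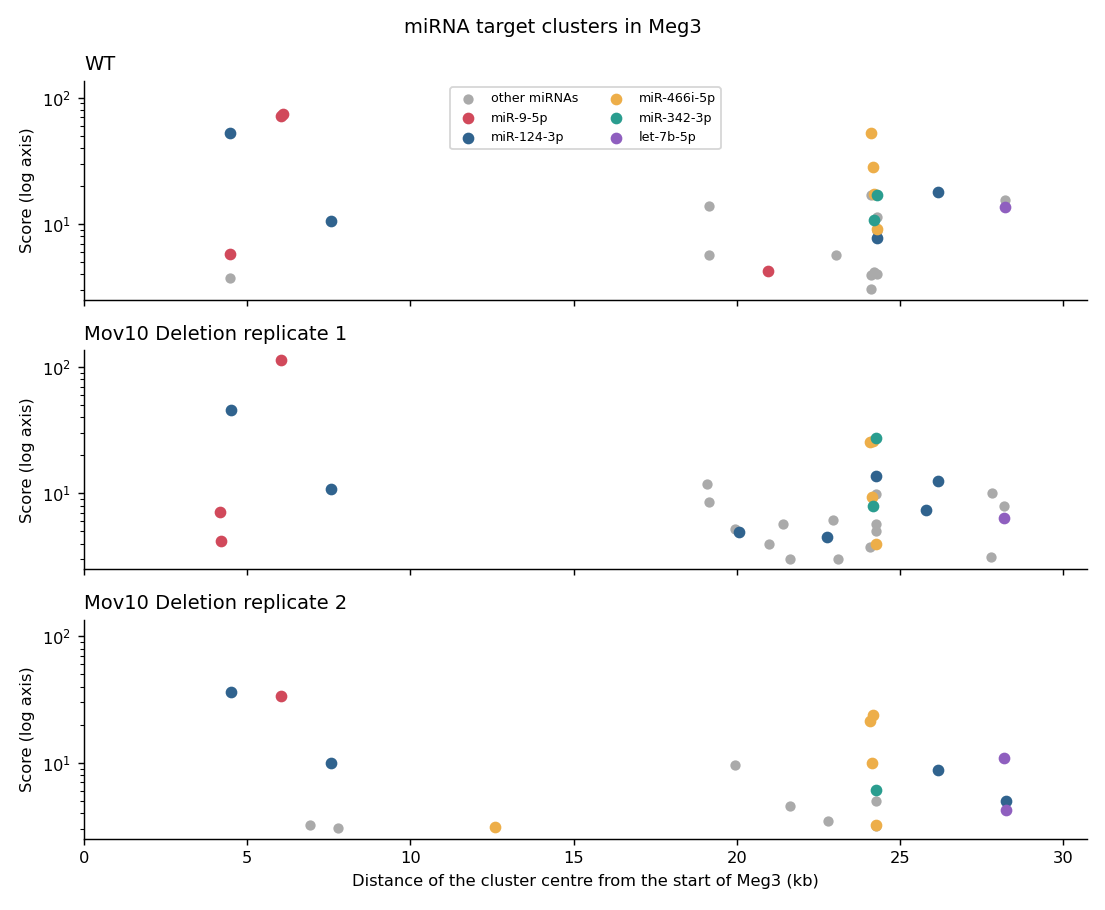
miRNA target clusters in *Meg3* in the 3 libraries. The horizontal axis is the distance of the cluster centre from the start of *Meg3* in kb, the vertical axis is the deposited score on a log axis, and colours mark the 5 miRNAs common to the 3 libraries with the highest scores. The miR-9-5p points near 6 kb, between 33.6 and 112.8, and the group of miR-466i-5p points near 24 kb recur in each library.

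In *Rian*, the region common to all libraries was chr12:109650729-109650909, with miR-22-3p. Its score was 10.9 in WT, 9.87 in Deletion 1 and 3.37 in Deletion 2. The WT target cluster there overlapped AF357359, the snoRNA that also held an AGO2 cluster, whereas the *Mov10* Deletion target clusters began at chr12:109650814, downstream of it. On the snoRNA gene Gm24564, which had no AGO2 cluster, miR-9-5p was assigned in WT with 4.10. miR-17-5p (9.62 and 6.86) and miR-466f-3p (5.83 and 6.99) were assigned to 1 region each in WT and Deletion 1. In the mid-*Rian* stretch of high log2 values, miR-466i-5p had 4.63 in WT and miR-124-3p had 6.96 in Deletion 1, and no miRNA was common to libraries.

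In *Mirg*, miR-124-3p was assigned to chr12:109735029-109735117, with scores of 18.7 in WT, 11.4 in Deletion 1 and 8.80 in Deletion 2. This is the place of the enriched AGO2 cluster at the start of *Mirg*, the one region of the 3 genes outside hairpins that had both an enriched AGO2 cluster and a target cluster, in all 3 libraries. In Deletion 2, miR-369-3p (3) was also assigned to its own hairpin Mir369, which holds an enriched AGO2 cluster on the other arm. On Mir770 in *Meg3*, miR-124-3p (4.55) was assigned in Deletion 1 and miR-770-3p (3.45) in Deletion 2.

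Other imprinted genes differed widely by the same measures. *H19*, a maternally expressed lncRNA and host of Mir675, had 11 of 12 clusters enriched in WT and 12 of 12 in each *Mov10* Deletion library, with a median log2 of 6.497, 6.55 and 5.63 and 2 target clusters in each. One of its clusters lay on Mir675 in WT, and it was not enriched. *Peg13* had 1 of 7, 2 of 10 and 4 of 10 clusters enriched, with medians of 2.69, 2.28 and 2.77. *Kcnq1ot1* (0 of 77, 9 of 135 and 0 of 135), *Airn* (0 of 61, 2 of 111 and 1 of 111) and *Snhg14* (0 of 445, 13 of 589 and 12 of 587), the host of another snoRNA family, had 0 in WT. In *Mov10* Deletion, *Kcnq1ot1* in Deletion 1 had a share of 6.67%, above the background of 5.18%, and the other shares were between 0% and 2.21%, below their backgrounds. *Snhg14* had medians of -0.02, 0.31 and 0.25, the lowest of these lncRNAs and still above those of *Meg3*. In the domain itself, *Dlk1* had 0 of 3, 1 of 8 and 0 of 8 clusters enriched, and *Dio3* had 0, 1 and 1 clusters, none of them enriched. *Nespas* was not analysed here.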

How the data were processed

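AGO2 chimeric eCLIP data of 1 WT and 2 *Mov10* Deletion brains were analysed. The 3 inputs entered through the IP over input values alone. The submitters' notes name UMI-tools 1.1.1, cutadapt 3.2, STAR 2.7.7a and Bowtie 1.2.3, with mm10, and per the methods clusters were called with CLIPper. The authors deposited a log2 ratio of IP over input and a −log10 p-value (at most 400, and 0 where the log2 is below 0) for each AGO2 cluster, and a miRNA and a score for each target cluster. Total reads per library are not given in the sources used here.

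Python 3 scripts (pandas, scipy) assigned clusters to RefSeq gene bodies and hairpins on GRCm38.p6, the assembly of mm10, by at least 1 nt on the same strand. Coordinates count from 1. Of the 11 snoRNA genes, 5 had a strand by symbol in GENCODE, and the others were taken to lie on the strand of *Rian*. Hairpins without a strand were left out. *Rtl1*, *H19*, *Peg13* and some markers took their strand from GENCODE. Reads were inferred as whole numbers (1 to 60 input reads) that give a cluster's log2 and p with 1 scaling constant per library, which matched 92.4% to 96.1% of the commonest values. On reads simulated with the same model and constant, this recovered 100% of enriched clusters in each library (567, 1033 and 1171 clusters). That checks the inversion alone and cannot show whether the deposited values follow the model. Clusters for which no such numbers were found have no inferred reads. A single input read may stand for none. Intervals are exact Clopper-Pearson. Named were every hairpin or snoRNA with an enriched cluster, the 5 highest enriched clusters per gene and library outside these, and each miRNA with a target cluster. Members, lists and rules were chosen with earlier results of these data known.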

Additional observations from a re-analysis of the deposited data

How the results depend on the processing

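Of 68 values recomputed under other settings, 44 stayed within 1.5 times the count reported or within 1 SD of the *Mov10* Deletion libraries. With a log2 minimum of 2, enriched clusters numbered 14 in WT and 23 in Deletion 1. Those outside hairpins and snoRNAs numbered 7, 13 and 8 in WT, Deletion 1 and Deletion 2, so the small counts outside hairpins rest on the minimum. The share of all clusters at this minimum was not computed, so these counts have no background beside them. With at least 16 inferred IP reads, Deletion 2 kept 7 enriched clusters. Among settings added after seeing the data, counting same-valued neighbours once gave 5 in WT, and counting hairpins gave 4, 6 and 5. A target score of at least 5 left 12 target clusters in Deletion 2, and counting each miRNA gave 38 in WT. Leaving out one *Mov10* Deletion library gave 11 enriched clusters for either, and median differences from WT of -0.19 to -0.14 in *Meg3*, -0.0786 to 0.0062 in *Rian* and 1.08 to 1.19 in *Mirg*. The sign in *Rian* reversed, at 0.0062, without Deletion 1. With an overlap of at least 50% of both clusters the differences in *Rian* and *Mirg* were -0.0068 and 0.95, and relative to the median of all clusters -0.0712, -0.0358 and 1.21 in *Meg3*, *Rian* and *Mirg*. Among settings added later, log2 values without the scaling of libraries gave -1.45, -1.41 and -0.17, the last a reversal in *Mirg*. Other causes were not tested. No paired analysis was possible because there is 1 WT library and the inputs, which share replicate numbers with the IP libraries, were not analysed as samples.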
